A study of Rattus norvegicus with 6 samples.

Results

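The 30 genes described here make cholesterol, sense it, move it within the cell or export it. They were taken by symbol from the count table: every row whose gene name equalled 1 of 30 listed symbols, out of 34225 loci. All 30 were in the table and all 30 passed the filter on low counts, which left 16398 loci for testing; their counts in a single library ran from 29 to 5508. Of the 30, 19 are enzymes on the path from acetyl-CoA to cholesterol, and 11 are sterol sensors, intracellular carriers, LXR receptors and exporters. The tissue was back skin of Sprague-Dawley rats, an outbred strain, and 6 RNA libraries were used: an untreated pair, a pair with a gefitinib rash (80 mg/kg by mouth once a day) and a pair with an afatinib rash (30 mg/kg by mouth once a day). Both drugs inhibit the epidermal growth factor receptor, a receptor kinase of keratinocytes and hair follicles, and both were given until a rash had formed, so the doses differ and the lengths of treatment may differ. The untreated rats are labelled wild type. The labels tie no library to a named animal, so p-values measure the spread between these libraries, which may be technical.

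Cholesterol synthesis starts from acetyl-CoA, passes through mevalonate and the isoprenoids, joins farnesyl units into squalene, closes the rings to give lanosterol, and ends with a series of demethylations, reductions and shifts of a double bond. When membranes of the endoplasmic reticulum are poor in sterol, SCAP carries the transcription factor SREBP2 to the Golgi, where it is cut and released to the nucleus; INSIG proteins hold SCAP back when sterol is plentiful. Oxysterols, which form when cholesterol is abundant, activate the LXR receptors, and these raise genes of export. In skin, keratinocytes make much of their own cholesterol, which goes into the lipid sheets of the barrier, and sebocytes make squalene for sebum.

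The library totals were 17206456 to 22086673 counts. Skeletal muscle markers made up a large and uneven part of the RNA, with a summed level of 225000 and 255000 CPM (counts scaled to library size and by TMM) in untreated skin, 35400 and 71800 with gefitinib, and 157000 and 35700 with afatinib replicates 1 and 2. Afatinib replicate 1 thus stood nearest the untreated libraries, and it was the lowest of the 4 treated libraries for 18 of the 30 genes. The share of all genes for which it was lowest was not computed. Counts of this kind, here and later, are therefore not read as a trait of these genes. Basal keratinocyte markers, the check of the skin label, were present in every library at a summed 1330 to 4430 CPM. In bulk tissue, fewer cells of a type and less RNA per cell cannot be told apart.

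The calls were mostly synthesis genes that were higher in the skin of treated rats, though most of the 30 genes did not pass. With gefitinib against untreated, 8 of the 19 synthesis genes rose and 0 fell in edgeR's quasi-likelihood test at an adjusted p of 0.05, with a median log2 fold change of 1.16 against 0.04 over all genes tested. Of the other 11 genes, Srebf2 rose and Nr1h3 fell, and their median was -0.19. Over all 30 genes that made 9 higher, beside 12.3% of all genes tested called higher in this comparison, and 1 lower, beside 5.45%. With afatinib 5 synthesis genes rose, with a median over the 19 of 1.18 against 0.09 over all genes, and none of the other 11 passed; 5 higher and 0 lower of 30 stood beside 3.6% and 0.372% of all genes. At an unadjusted p under 0.05 there were 15 of the 30 with afatinib and 17 with gefitinib, beside 3591 and 6106 of all 16398 genes. Later counts at an unadjusted p have the same background. DESeq2 called 1 member, Nr1h3, lower with afatinib where limma-voom called 0, beside 498 and 2 of all genes.

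The 5 genes that passed with afatinib, Hmgcs1, Idi1, Sqle, Cyp51 and Dhcr7, also passed with gefitinib; both comparisons use the same untreated libraries, so they are not independent. In the mean of both inhibitors against untreated, 9 of the 30 genes were higher and 1 lower, the background being 11% higher and 4.93% lower. In CPM, 17 of the 30 genes lay above both untreated libraries in all 4 treated libraries, among them 16 of the 19 synthesis genes, where 27.2% of all genes did so; 3 lay below, Nr1h2, Nr1h3 and Abca1, where 18.8% of all genes did so. Without either untreated library, no gene of the 30 passed in any of these comparisons, and only 7 genes (without replicate 1) or 0 (without replicate 2) of all those tested were called higher with gefitinib. Without gefitinib replicate 1 or 2, fewer members were higher with gefitinib, and fewer of all genes were too. The calls with afatinib also fell to 0 with limma-voom and in a fit of the 2 groups alone, where 32 and 44 of all genes were higher. No member passed with afatinib without either gefitinib library, and fewer passed without afatinib replicate 2. Fewer of all genes were higher with afatinib in those fits too. The median log2 difference of the 19 synthesis genes from the untreated mean was 0.86 in afatinib replicate 1 and 1.3 in replicate 2.

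**Figure D1:**
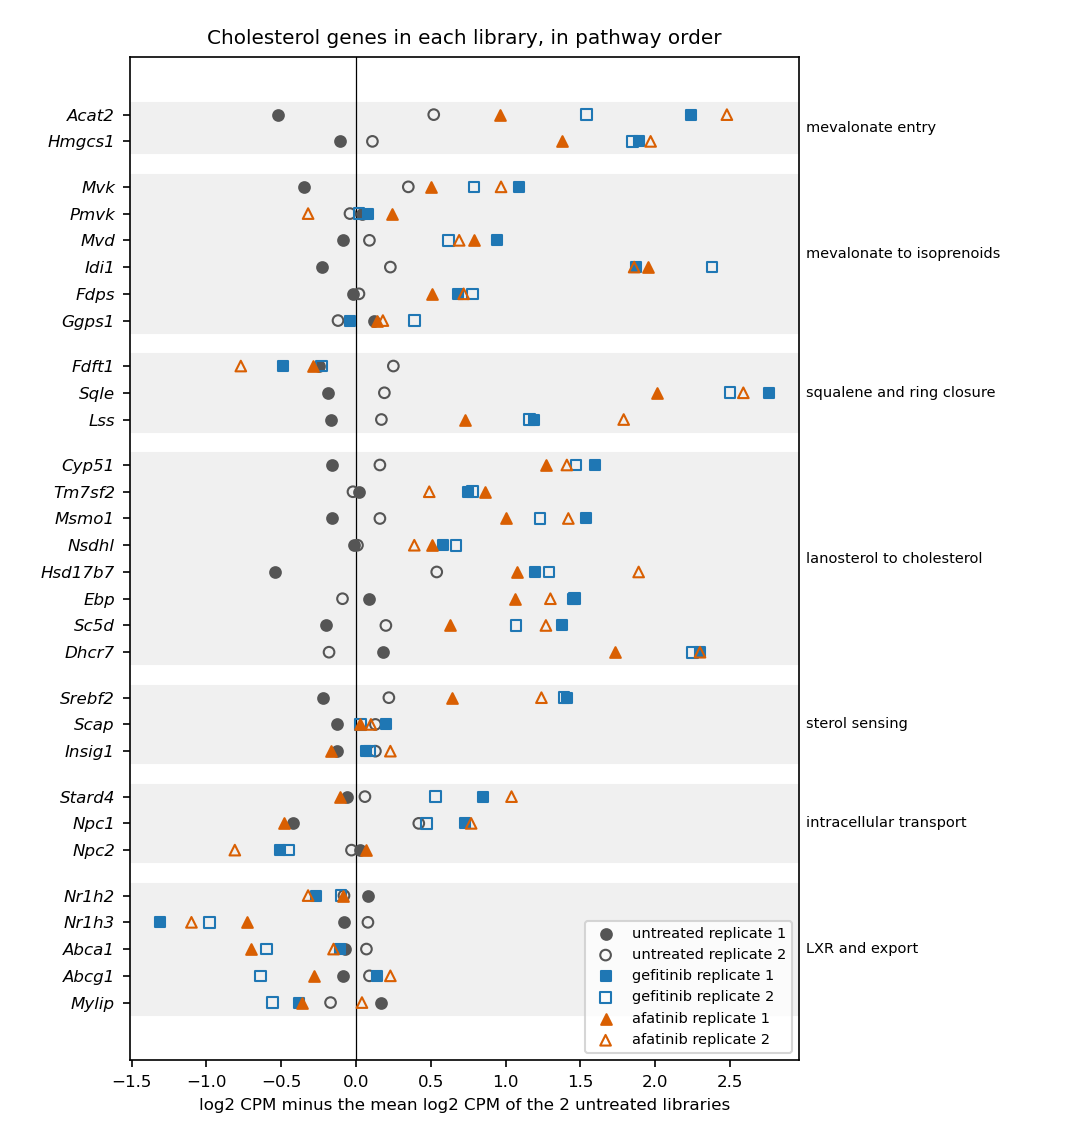
Each point is 1 library; the horizontal axis is the log2 CPM minus the mean of the 2 untreated libraries, and genes run down in pathway order within shaded role groups. Treated libraries lie to the right of both untreated libraries for 16 of the 19 synthesis genes. Among the other 11, all 4 treated libraries lie above 0 for Srebf2 and Scap and below 0 for Nr1h2, Nr1h3 and Abca1. For the rest of the 11 they lie on both sides of 0.

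At the entry to the pathway, Hmgcs1 and Acat2 were both higher in every treated library. Hmgcs1 (ENSRNOG00000016552, chromosome 2, 52431601 to 52445055; coordinates here are those of the count table, of a build not named in the sources used) encodes the cytosolic synthase that makes HMG-CoA. It stood at 50.2 and 58.3 CPM in untreated skin, 201 and 195 with gefitinib, and 140 and 212 with afatinib. No treated library came near the untreated pair, and the log2 fold change was 1.87 ± 0.31 (SE) with gefitinib and 1.70 ± 0.31 with afatinib (adjusted p = 0.015 and 0.0369). Acat2, which joins acetyl-CoA units ahead of that step, was at 2.14 and 4.42 CPM, then 14.5 and 8.97 with gefitinib and 5.98 and 17.2 with afatinib. Its groups did not overlap, but its replicates were far apart and it did not pass (log2 1.83 ± 0.61, adjusted p = 0.0752 with gefitinib; 1.82 ± 0.61, adjusted p = 0.141 with afatinib).

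Of the 6 genes from mevalonate to the isoprenoids, only Idi1 passed. Idi1 (ENSRNOG00000016690, chromosome 17, 57976268 to 57984036) encodes the isomerase that supplies dimethylallyl diphosphate. It was at 9.75 and 13.5 CPM in untreated skin, 42.0 and 59.6 with gefitinib and 44.2 and 41.7 with afatinib. All 4 treated libraries were above the untreated pair, by a log2 fold change of 2.13 ± 0.29 and 1.88 ± 0.29 (adjusted p = 0.011 and 0.0318). Its span overlaps that of Wdr37 on the other strand by 100 bases, and whether counting used strand is not stated in the sources used. The kinase Mvk, the decarboxylase Mvd and the farnesyl diphosphate synthase Fdps lay above both untreated libraries in all treated ones, with log2 fold changes of 0.91, 0.78 and 0.73 with gefitinib (adjusted p = 0.102, 0.0651 and 0.0797). Fdps, whose product feeds both sterols and prenyl groups, went from 80.8 and 83.2 CPM to 131 and 141 with gefitinib and 117 and 135 with afatinib. The second kinase Pmvk (0.05 and -0.01) and Ggps1 (0.18 and 0.16), which turns farnesyl into geranylgeranyl diphosphate, did not pass with either drug; in CPM all groups of Pmvk overlapped, and for Ggps1 gefitinib overlapped the untreated pair (16.7 and 14.1 CPM) while afatinib, at 17 and 17.4, lay just above it.

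The promoters of these 2 called genes are shown because CCAAT, the box bound by NF-Y, a partner of SREBP2 at many sterol genes, occurs in each. Sequences are from RefSeq (GRCr8), 250 bases before to 50 after the start of the gene, written 5' to 3' on the gene's strand; capitals mark CCAAT read on either strand (ATTGG on the strand shown). These 2 were chosen after the search results were seen.
Hmgcs1 promoter, chr2:53382054-53382353, plus strand: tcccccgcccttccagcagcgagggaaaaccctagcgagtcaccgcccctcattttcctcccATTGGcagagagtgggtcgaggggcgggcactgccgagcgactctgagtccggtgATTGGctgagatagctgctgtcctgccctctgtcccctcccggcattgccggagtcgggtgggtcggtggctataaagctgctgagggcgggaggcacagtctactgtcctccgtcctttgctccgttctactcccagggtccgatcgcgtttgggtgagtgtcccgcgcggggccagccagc
Idi1 promoter, chr17:66547475-66547774, minus strand: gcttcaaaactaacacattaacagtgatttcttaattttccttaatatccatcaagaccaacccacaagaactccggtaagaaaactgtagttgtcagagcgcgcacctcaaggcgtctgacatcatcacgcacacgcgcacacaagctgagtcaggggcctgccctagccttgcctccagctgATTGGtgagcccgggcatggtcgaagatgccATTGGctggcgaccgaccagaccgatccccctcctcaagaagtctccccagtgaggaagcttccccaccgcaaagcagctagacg

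Neighbouring steps differed most around squalene. Sqle (ENSRNOG00000009550, chromosome 7, 99609191 to 99624732), the epoxidase that adds oxygen to squalene, was at 7.4 and 9.6 CPM in untreated skin, 57.1 and 47.7 with gefitinib, and 34.0 and 50.6 with afatinib. Every treated library was above every untreated one, and the log2 fold changes of 2.62 ± 0.30 and 2.31 ± 0.30 (6.15-fold and 4.97-fold; adjusted p = 0.00971 and 0.0257) were the largest of the 30 genes in both comparisons. Fdft1, the squalene synthase just upstream, was at 83.0 and 117 CPM in untreated skin, 70.0 and 84.2 with gefitinib and 80.4 and 57.5 with afatinib. The gefitinib pair overlapped the untreated pair and the afatinib pair lay below it. The log2 values were negative, -0.37 ± 0.30 and -0.53 ± 0.30 (adjusted p = 0.384 and 0.336), and Fdft1 was the only synthesis gene with a negative value in both comparisons. With scaling by library size alone its values were 0.29 and 0.02, in a setting where the medians of all genes were 0.73 and 0.71. Lss, which closes the rings to lanosterol, was at 5.95 and 7.51 CPM, then 15.3 and 14.9 with gefitinib and 11 and 23.1 with afatinib. Lss lay above the untreated pair throughout but did not pass (log2 1.16 and 1.35, adjusted p = 0.0808 and 0.106).

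A ratio of raw counts within a library needs no scaling between libraries, and it was formed after these values were seen, so it is a description with no test. Sqle counts per Fdft1 count were 0.0892 and 0.0822 in untreated skin, 0.816 and 0.566 with gefitinib, and 0.422 and 0.879 with afatinib. The 2 consecutive enzymes thus stood in a ratio of 0.0857 ± 0.00492 (mean ± SD, n = 2) in untreated skin, 0.691 ± 0.176 with gefitinib and 0.651 ± 0.323 with afatinib.

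The path from lanosterol to cholesterol had the most calls: with gefitinib 5 of its 8 genes rose and with afatinib 2, and all 8 were above both untreated libraries in all 4 treated ones. Dhcr7 (ENSRNOG00000020776, chromosome 1, 217018916 to 217034904), which makes the final reduction of 7-dehydrocholesterol, was at 9.47 and 7.33 CPM in untreated skin, 41.2 and 39.5 with gefitinib, and 27.7 and 41.0 with afatinib (log2 2.26 ± 0.29 and 2.03 ± 0.29; adjusted p = 0.0105 and 0.0308). Cyp51 (ENSRNOG00000007234, chromosome 4, 27175243 to 27194018), the lanosterol demethylase, was at 28.6 and 35.7 CPM, then 96.7 and 88.5, then 76.9 and 84.8. Its log2 fold changes were 1.52 ± 0.24 and 1.33 ± 0.24 (adjusted p = 0.0137 and 0.0369). Both genes were separated from the untreated pair in every treated library.

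Msmo1, Ebp and Sc5d passed with gefitinib and not with afatinib, and none differed between the drugs at the threshold. Msmo1 (ENSRNOG00000032297, chromosome 16, 26859397 to 26875973), an oxidase that strips the methyl groups at carbon 4, was at 12.4 and 15.5 CPM in untreated skin, 40.3 and 32.5 with gefitinib and 27.8 and 37.1 with afatinib (log2 1.38 ± 0.27, adjusted p = 0.0202; 1.22 ± 0.27, adjusted p = 0.0555). Ebp (ENSRNOG00000004903, chromosome X, 15049462 to 15055781), the sterol isomerase, was at 8.37 and 7.39, then 21.5 and 21.6, then 16.4 and 19.4 CPM (log2 1.45 ± 0.26, adjusted p = 0.0166; 1.18 ± 0.26, adjusted p = 0.0536). Sc5d (ENSRNOG00000008305, chromosome 8, 46525400 to 46537050), a sterol desaturase, was at 16.7 and 22, then 49.7 and 40.3, then 29.6 and 46.1 CPM (log2 1.22 ± 0.30, adjusted p = 0.0365; 0.97 ± 0.30, adjusted p = 0.119). In each of the 3, afatinib replicate 1 was the lowest treated library and still above both untreated libraries. Nsdhl, the dehydrogenase that works with Msmo1, had log2 values of 0.62 and 0.45, Tm7sf2, a sterol reductase, 0.77 and 0.69, and Hsd17b7, a ketosteroid reductase, 1.14 and 1.44; none of these passed. The span of Tm7sf2 shares 1066 bases with Vps51 on the same strand, and that of Hsd17b7 overlaps an opposite-strand locus of only 4 counts in all.

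**Figure D2:**
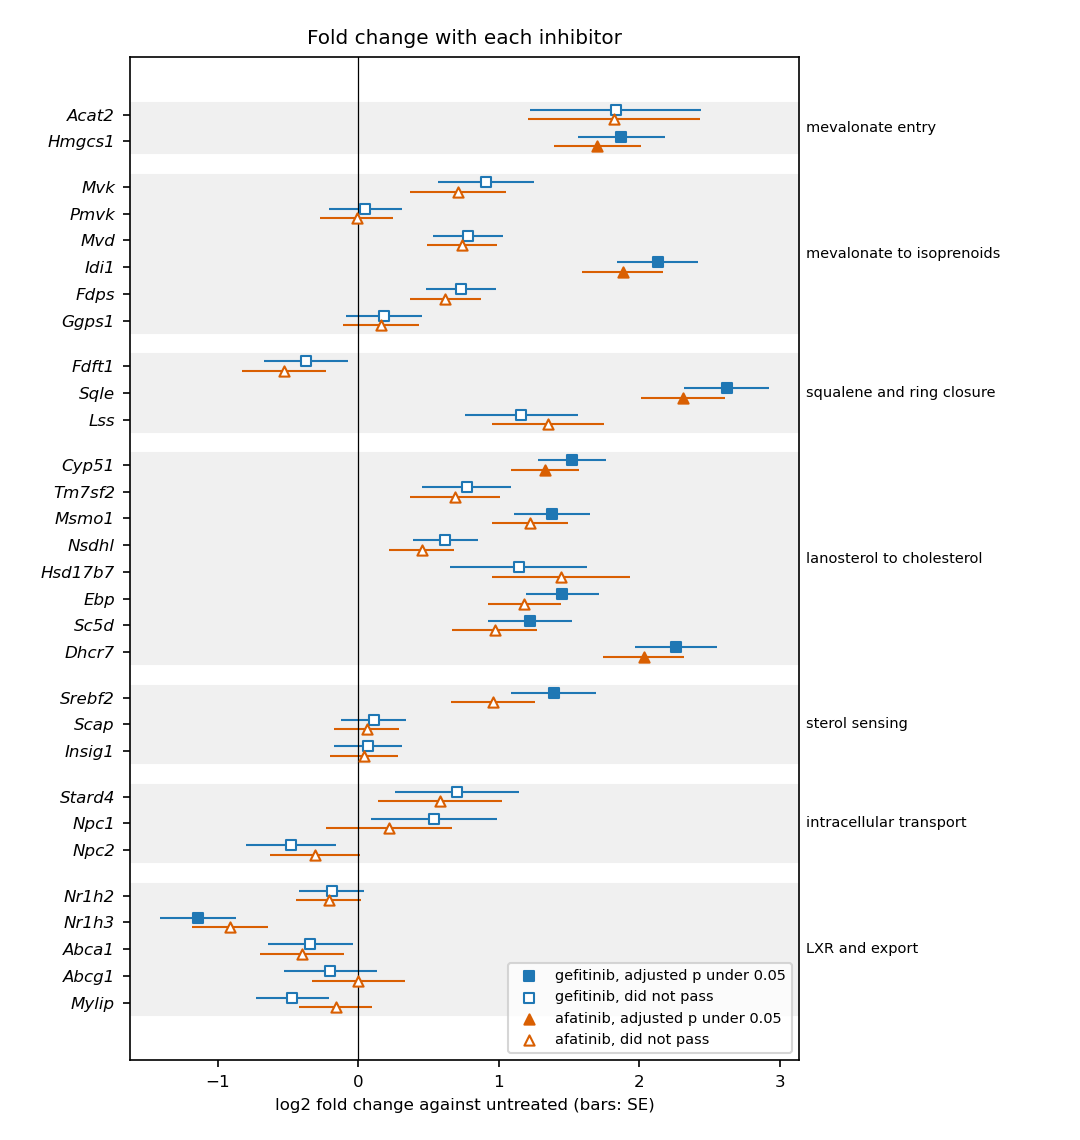
Points are log2 fold changes against untreated for gefitinib (squares) and afatinib (triangles) with bars of 1 SE; filled points passed at an adjusted p under 0.05. Filled points to the right are 9 genes for gefitinib and 5 for afatinib, Nr1h3 is the only filled point to the left, and Sqle is the farthest to the right.

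Per kilobase of gene length, the ranking of the enzymes differed between the groups. In the authors' FPKM (counts scaled by gene length and library, which allow levels of different genes to be compared), the highest synthesis genes of untreated skin were Fdft1 at 32.0 ± 7.77 (mean ± SD, n = 2), Fdps at 27.5 ± 0.674, Pmvk at 24.6 ± 0.839 and Hmgcs1 at 17.0 ± 1.86. The spread of Fdft1 covered both Fdps and Pmvk. With gefitinib Hmgcs1 led at 60.6 ± 0.177 FPKM, ahead of Fdps at 44.6 ± 3.06 and Cyp51 at 27.3 ± 1.28; with afatinib Hmgcs1 was at 52.5 ± 14, Fdps at 40.2 ± 3.04, and Cyp51 (23.3 ± 1.08) and Pmvk (23.3 ± 6.82) were level. Sqle had an FPKM of 3.16 ± 0.589 in untreated skin, close to Dhcr7 at 3.09 ± 0.547, and of 18.9 ± 2.12 and 14.9 ± 3.81 with the drugs. Hsd17b7 had the lowest FPKM of the 30 genes in all 3 groups, 0.803 ± 0.41, 1.73 ± 0.103 and 2.06 ± 0.752.

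**Figure D3:**
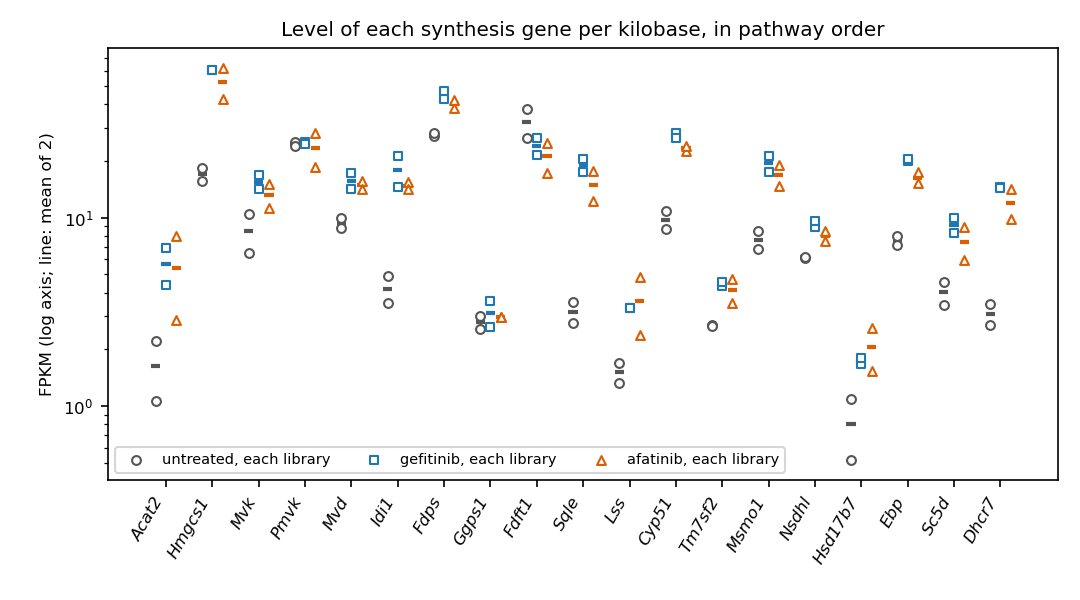
Level of each synthesis gene in FPKM on a log axis, in pathway order, with 1 point per library and a line at the mean of 2. Hmgcs1, Idi1, Sqle, Cyp51 and Dhcr7 show untreated circles well below the treated points, while those of Pmvk, Ggps1 and Fdft1 lie among or beside the treated points.

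Of the 3 sterol sensing genes, Srebf2 rose with gefitinib, and Insig1 and Scap did not pass. Srebf2 (ENSRNOG00000007400, chromosome 7, 123381077 to 123438603), which encodes SREBP2, was at 38.0 and 51.6 CPM in untreated skin, 118 and 116 with gefitinib, and 69.1 and 105 with afatinib. All treated libraries were above both untreated ones, with afatinib replicate 1 the nearest; the log2 fold change was 1.39 ± 0.30 with gefitinib (adjusted p = 0.0259) and 0.96 ± 0.30 with afatinib (adjusted p = 0.122). Insig1 (ENSRNOG00000006859, chromosome 4, 342302 to 350515), the retention factor and itself a known SREBP target, was at 36.0 and 43.3 CPM, then 41.5 and 41.9 with gefitinib and 35.2 and 46.2 with afatinib. Its groups overlapped: the log2 value was 0.07 with a 95% interval of -0.50 to 0.64 for gefitinib, and 0.04 with an interval of -0.53 to 0.61 for afatinib (adjusted p = 0.847 and 0.941). Scap, the escort of SREBP2, was at 62.9 and 75.1 CPM, then 78.9 and 70.3, then 70.0 and 73.6, with log2 values of 0.11 and 0.06 (adjusted p = 0.747 and 0.905).

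As ratios of counts within a library, Srebf2 per Insig1 was 1.06 and 1.19 in untreated skin, 2.84 and 2.77 with gefitinib, and 1.96 and 2.26 with afatinib. Sqle per Insig1 was 0.205 and 0.222, then 1.38 and 1.14, then 0.965 and 1.09. In both ratios the 4 treated libraries lay above the untreated pair.

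The promoters of Srebf2 and Insig1 are shown because the printing rule given below names them. Both carry a CCAAT box, and only Srebf2 was called. Whether the marked letters bear on that call was not tested. Capitals mark CCAAT on either strand and, in Srebf2, TCACCCCA, which matches the shortened sterol response core TCACNCCA.
Srebf2 promoter, chr7:115543057-115543356, plus strand: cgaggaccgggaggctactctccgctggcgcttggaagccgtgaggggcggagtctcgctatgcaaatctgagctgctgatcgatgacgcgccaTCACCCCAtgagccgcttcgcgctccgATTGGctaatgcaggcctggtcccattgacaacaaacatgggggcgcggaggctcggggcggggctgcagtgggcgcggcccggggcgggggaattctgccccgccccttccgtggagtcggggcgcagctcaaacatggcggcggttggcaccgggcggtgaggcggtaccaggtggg
Insig1 promoter, chr4:8057720-8058019, minus strand: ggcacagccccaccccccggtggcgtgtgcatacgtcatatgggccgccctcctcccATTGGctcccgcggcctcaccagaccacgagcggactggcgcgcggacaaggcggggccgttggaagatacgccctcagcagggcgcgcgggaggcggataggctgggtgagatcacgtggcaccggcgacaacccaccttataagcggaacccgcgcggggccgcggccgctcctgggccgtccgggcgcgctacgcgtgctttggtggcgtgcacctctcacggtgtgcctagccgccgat

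None of the 3 intracellular transport genes passed. Stard4, a soluble sterol carrier, was at 5.19 and 5.64 CPM in untreated skin, 9.76 and 7.79 with gefitinib and 5 and 11.1 with afatinib (log2 0.70 ± 0.44 and 0.58 ± 0.44; adjusted p = 0.287 and 0.481). Npc1, the lysosomal membrane protein that passes cholesterol on, was at 27.5 and 49.6, then 61.2 and 51.1, then 26.5 and 63.0 CPM (log2 0.54 and 0.22; adjusted p = 0.405 and 0.802). Npc2, its soluble partner in the lysosome, was at 107 and 102, then 73.3 and 76.3, then 110 and 59.7 CPM (log2 -0.48 and -0.31; adjusted p = 0.307 and 0.608). In all 3 genes afatinib replicate 1 sat at the untreated level and afatinib replicate 2 beside or beyond the gefitinib pair, so the afatinib values straddled the untreated ones. The span of Npc1 overlaps Rmc1 on the other strand by 406 bases.

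Among the LXR and export genes Nr1h3 fell with gefitinib and the other 4 did not pass. Nr1h3 (ENSRNOG00000013172, chromosome 3, 80004130 to 80012750), which encodes LXR alpha, a receptor prominent in macrophages and fat, was at 27.0 and 30.3 CPM in untreated skin, 11.6 and 14.5 with gefitinib, and 17.2 and 13.3 with afatinib. All treated libraries were below both untreated ones; the log2 fold change was -1.14 ± 0.27 with gefitinib (adjusted p = 0.0328) and -0.91 ± 0.27 with afatinib (adjusted p = 0.108). With scaling by library size alone the gefitinib value was -0.47 (adjusted p = 0.381), in a setting where the median of all genes was 0.73. Nr1h2, the widely expressed LXR beta, was at 78.1 and 70.0, then 61.2 and 68.8, then 69.3 and 59.1 CPM (log2 -0.19 and -0.21; adjusted p = 0.58 and 0.637). Counts of Nr1h3 per Nr1h2 were 0.345 and 0.433 in untreated skin, 0.189 and 0.21 with gefitinib, and 0.248 and 0.225 with afatinib, lower in all 4 treated libraries.

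The exporters and the LXR-induced ligase did not pass with either drug. Abca1, which loads cholesterol onto apolipoprotein A-I, was at 89.8 and 99.2 CPM in untreated skin, 87.5 and 62.2 with gefitinib, and 58.2 and 85.2 with afatinib (log2 -0.34, 95% interval -1.03 to 0.36, adjusted p = 0.435; -0.40, interval -1.10 to 0.30, adjusted p = 0.471). Abcg1, which passes cholesterol to formed HDL, was at 21.9 and 24.6, then 25.5 and 14.9, then 19 and 27.2 CPM (log2 -0.20 and 0.00; adjusted p = 0.681 and 0.994). Mylip, the ubiquitin ligase that lowers LDL receptor family proteins, was at 63.1 and 50.2, then 43.4 and 38.2, then 43.9 and 57.8 CPM (log2 -0.47 and -0.16; adjusted p = 0.216 and 0.748). Abca1 was below both untreated libraries in every treated one. Abcg1 overlapped the untreated pair with both drugs, while Mylip was below it with gefitinib and overlapped it with afatinib. With scaling by library size alone the values of Nr1h2, Abca1, Abcg1 and Mylip with gefitinib were 0.49, 0.36, 0.51 and 0.22, in a setting where the median of all genes was 0.73. The promoter of Abca1 is shown because the printing rule given below names it. It held no exact match to the motifs searched. The strict LXR form searched was in only 2 of 33469 promoters, so its absence does not tell whether this promoter holds an LXR element. Looser forms of the LXR element were not searched.
Abca1 promoter, chr5:72596424-72596723, minus strand: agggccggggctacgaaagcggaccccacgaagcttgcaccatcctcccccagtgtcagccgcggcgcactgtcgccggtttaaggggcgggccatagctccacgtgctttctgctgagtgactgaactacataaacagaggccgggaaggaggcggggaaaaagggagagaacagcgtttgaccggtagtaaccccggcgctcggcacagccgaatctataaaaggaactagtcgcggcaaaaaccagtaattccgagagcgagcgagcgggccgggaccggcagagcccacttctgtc

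RefSeq promoters of 25 of the 30 genes were searched, all but those of Pmvk, Fdft1, Sqle, Stard4 and Abcg1. CCAAT on either strand was in 17 of the 25 (68%) and in 37.5% of all 33469 promoters of the same length. Among the synthesis genes it was in 13 of 16 (81.2%): in 5 of the 7 that passed with either drug (71.4%) and in 8 of the 9 that did not (88.9%). Of the 9 sensing, transport, LXR and export genes 4 held it (44.4%). Dhcr7 and Cyp51, both called with both drugs, had no CCAAT in this window. The sterol response core TCACNCCAC was in 0 of the 25 and in 1.12% of all promoters. The shorter TCACNCCA, which is the start of that core and was added after the search for it found no match, was in Msmo1 and Srebf2 and in 3.89% of all promoters. An exact pair of AGGTCA sites 4 bases apart, a strict form of the LXR element, was in 0 of the 25 and in 2 promoters of all (0.00598%). So rare a match cannot tell whether a promoter holds a looser LXR site. A match is a match of letters only, and a promoter without one lacks those letters in this window.

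Summed over genes, the 19 synthesis genes were at 443 ± 50.5 CPM in untreated skin, 913 ± 6.28 with gefitinib and 818 ± 104 with afatinib (mean ± SD, n = 2), while the other 11 were at 579 ± 32, 587 ± 34.9 and 562 ± 54.9 CPM. Counts of the synthesis genes per count of the other 11, which need no scaling, were 0.732 and 0.795 in untreated skin, 1.5 and 1.61 with gefitinib, and 1.42 and 1.48 with afatinib. This ratio was above the untreated pair in all 4 treated libraries, with group means of 0.763 ± 0.0449, 1.56 ± 0.0819 and 1.45 ± 0.0439. As a share of all counts the 19 made up 0.0292% and 0.0372%, then 0.118% and 0.101%, then 0.0665% and 0.124%. Afatinib replicate 1, the lowest treated library for 12 of the 19, was near the other treated libraries in the ratio and farther from them in the share.

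Several cell type markers were higher in the same libraries. Marker counts called are to be read against the shares of all genes. These were 12.3% higher and 5.45% lower with gefitinib, and 3.6% and 0.372% with afatinib. Dividing cell markers were at a summed 120 and 164 CPM in untreated skin, 959 and 1010 with gefitinib, and 426 and 800 with afatinib, and 12 of 12 passed higher with gefitinib and 10 with afatinib. Suprabasal and stressed keratinocyte markers summed to 255 to 358 CPM untreated, 988 to 1150 with gefitinib and 764 to 1210 with afatinib (8 and 7 of 11 higher). Hair follicle markers summed to 73.8 to 274, 3570 to 3930 and 1110 to 3150 CPM (12 and 6 of 12 higher). Basal keratinocyte markers summed to 1330 to 1930, 2620 to 2630 and 2780 to 4430 CPM (3 of 9 higher and 1 lower with gefitinib, 0 with afatinib, where 5 had an unadjusted p under 0.05). Their part in the rise of the synthesis genes was not tested. The sum of the sebocyte markers overlapped between the groups, at 66.9 to 102 CPM untreated, 51.6 to 68.7 with gefitinib and 67.3 to 118 with afatinib. Of 10 tested, 1 was higher and 2 lower with gefitinib and 1 lower with afatinib. Single sebocyte markers went both ways, with log2 values from -3.37 to 1.59 with gefitinib and -2.42 to 2.1 with afatinib. At an unadjusted p under 0.05 there were 4 and 6 of the 10.

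Other compartments are given for the fall of Nr1h3, and their counts called have the same shares of all genes as background. Macrophage markers were at 328 to 513 CPM untreated, 202 to 378 with gefitinib and 338 to 590 with afatinib (0 of 10 called, 1 at an unadjusted p under 0.05 with each drug). Adipocyte markers were at 652 to 878, 589 to 792 and 421 to 839 CPM (2 of 10 higher with each drug). Their median log2 values were 0.49 and 1.78, with 4 and 6 of 10 at an unadjusted p under 0.05. Schwann cell markers were at 930 to 1370, 145 to 235 and 181 to 290 CPM (7 and 3 of 10 lower), and endothelial markers at 477 to 567, 88.8 to 264 and 301 to 353 CPM (4 and 0 of 9 lower). Fibroblast markers were at 10100 to 21200, 1250 to 6180 and 3270 to 8850 CPM (1 and 0 of 9 called higher, 0 lower). Their median log2 values were -1.19 and -0.57, with 2 and 3 of 9 above 0, and 4 and 1 had an unadjusted p under 0.05. For skeletal muscle, 0 of 13 markers passed with either drug (4 and 0 at an unadjusted p under 0.05), and their medians were -2.09 and -1.33. Hepatocyte markers, chosen as another sterol-making tissue, summed to 0.989 to 14.2 CPM, with 2 of 7 at 0 in all libraries and 1 of 2 tested higher with each drug. The part of these compartments in the fall of Nr1h3 was not tested.

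**Figure D4:**
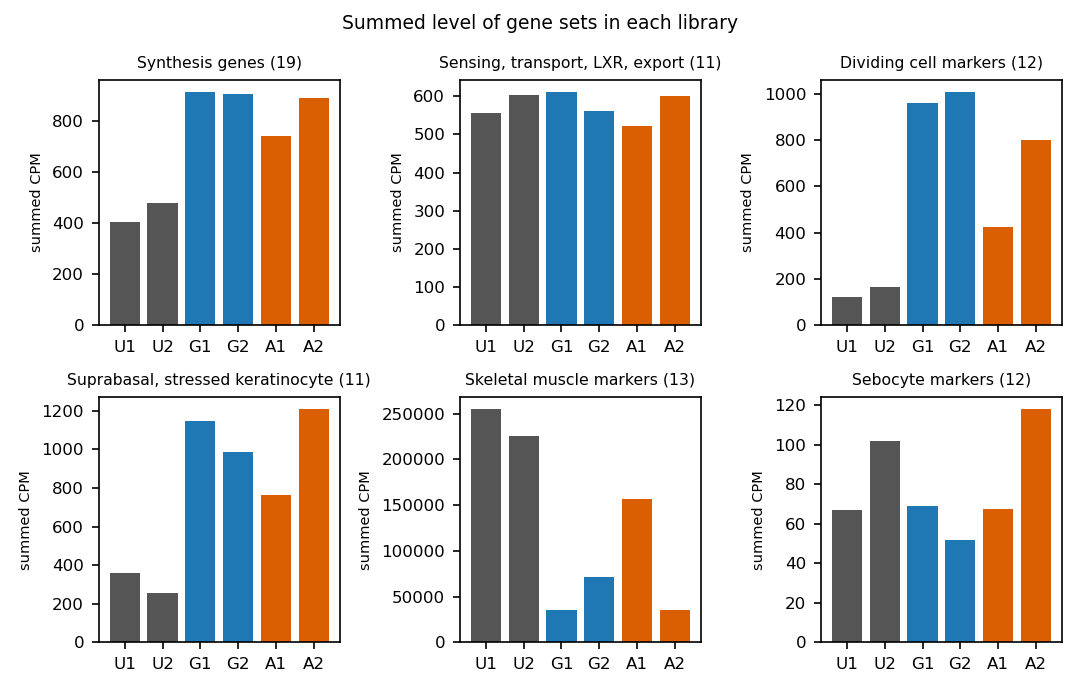
Bars are summed CPM in each library (U untreated, G gefitinib, A afatinib, with the replicate number) for the 19 synthesis genes, the other 11 genes and 4 marker lists, each panel on its own axis from 0. Synthesis genes, dividing cell markers and suprabasal keratinocyte markers are higher in all 4 treated libraries, the other 11 genes and the sebocyte markers are not, and muscle markers are lowest in G1 and A2.

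Some genes around the pathway were called too, where 12.3% of all genes were called higher with gefitinib and 3.6% with afatinib. Counts at an unadjusted p under 0.05 with afatinib stand beside 3591 of all 16398 genes. Of 12 tested genes of SREBP1-responsive fatty acid synthesis 5 rose with gefitinib and 0 with afatinib (median log2 1.04 and 1.19), where 7 had an unadjusted p under 0.05. Among these, Acly, which supplies cytosolic acetyl-CoA to both pathways, went from 50.7 and 50.6 CPM to 193 and 182 with gefitinib and 101 and 170 with afatinib (log2 1.89 ± 0.32, adjusted p = 0.015; 1.42 ± 0.32, adjusted p = 0.0555). Fasn, the fatty acid synthase, had log2 fold changes of 2.25 ± 0.48 and 2.12 ± 0.48 (adjusted p = 0.0245 and 0.0558), and the desaturase Fads2 2.20 ± 0.45 and 1.75 ± 0.44 (adjusted p = 0.0214 and 0.0736). Srebf1, which encodes SREBP1 and is named outside the rule given below, did not pass (log2 -0.04 and 0.09). It was at 67.2 and 175 CPM in untreated skin, 122 and 114 with gefitinib, and 132 and 127 with afatinib. Of 12 other SREBP2-responsive and sterol genes 3 rose with gefitinib and 0 with afatinib: Erg28, a scaffold of the demethylation enzymes (log2 1.31 and 1.00), Tmem97, a sterol-responsive membrane protein (1.23 and 1.04), and Hsd17b12, a reductase of fatty acid elongation (1.23 and 1.10). The median of those 12 was 0.04 with gefitinib and -0.16 with afatinib, beside 0.04 and 0.09 over all genes, and 5 had an unadjusted p under 0.05 with afatinib.

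In the lists on either side of synthesis the counts called are small and are to be read against the same shares of all genes, 12.3% higher and 5.45% lower with gefitinib and 3.6% and 0.372% with afatinib. Counts at an unadjusted p under 0.05 are to be read against 6106 of all 16398 genes with gefitinib and 3591 with afatinib. Of 15 genes of the isoprenoid branches, which use farnesyl and geranylgeranyl units, 1 rose with gefitinib, the CAAX protease Rce1 (log2 1.25 ± 0.34, adjusted p = 0.0442), and 0 with afatinib (1 at an unadjusted p under 0.05). Of 14 genes of SREBP processing and sterol-regulated degradation, the ubiquitin ligase Rnf145 rose with gefitinib (log2 1.43 ± 0.32, adjusted p = 0.028), Hhatl fell (-2.30 ± 0.60, adjusted p = 0.0408), and 0 passed with afatinib (4 at an unadjusted p under 0.05). Hhatl is known mainly from muscle and was at 350 and 391 CPM in untreated skin, 67.7 and 83.2 with gefitinib and 227 and 58 with afatinib, high in the same 3 libraries as the muscle markers. Of 5 tested genes of esterification and storage 0 passed, with 1 and 0 at an unadjusted p under 0.05; Nceh1, a cholesteryl ester hydrolase, had the smallest p in the mean of both drugs (log2 -0.61, adjusted p = 0.173).

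For uptake and lysosomal or contact-site transport, 1 of 19 genes rose and 2 fell with gefitinib, the lysosomal membrane protein Scarb2 (log2 -1.28) and the caveolin Cav1 (-1.52), and 0 passed with afatinib (4 at an unadjusted p under 0.05). Lrp8, a receptor of the LDL receptor family, went from 1.31 and 2.09 CPM to 8.35 and 9.89 with gefitinib and 5.07 and 10.8 with afatinib (log2 2.41 ± 0.50, adjusted p = 0.023; 2.21 ± 0.50, adjusted p = 0.056), while Vldlr, of the same family, was lower in the mean of both drugs (-1.13, adjusted p = 0.0496). Of 15 LXR-responsive and oxysterol genes 2 rose and 2 fell with gefitinib, and 1 rose with afatinib. Smpdl3a, an LXR-responsive phosphodiesterase, fell with gefitinib (log2 -1.19 ± 0.27, adjusted p = 0.0301), as did Cyp27a1, which makes 27-hydroxycholesterol (-1.96 ± 0.47, adjusted p = 0.0333). Abca12, a lipid transporter of keratinocytes, rose with gefitinib (2.12 ± 0.54, adjusted p = 0.038). Cyp7b1, which clears oxysterols, rose with both, from 3.32 and 2.68 CPM to 8.78 and 6.13 with gefitinib and 10.7 and 11.2 with afatinib (log2 1.31 ± 0.37 and 1.86 ± 0.37; adjusted p = 0.0485 and 0.0431).

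Afatinib was compared with gefitinib directly, at doses that differ. None of the 30 genes passed, beside 0% of all genes, and 0 of the 30 reached an unadjusted p under 0.05 against 946 of all 16398 genes; DESeq2 and limma-voom called 0 of the 30 too, where over all genes DESeq2 called 19 higher and 12 lower and limma-voom 0. The smallest p of the 30 belonged to Srebf2, with 118 and 116 CPM against 69.1 and 105 and a log2 difference, afatinib minus gefitinib, of -0.43 (95% interval -1.13 to 0.26, unadjusted p = 0.188). For Hmgcs1 the difference was -0.17 (interval -0.87 to 0.54), for Sqle -0.31 (-0.97 to 0.35), and for Dhcr7 -0.23 (-0.88 to 0.42). For Msmo1, Ebp and Sc5d, called with gefitinib alone, it was -0.16 (-0.79 to 0.46), -0.27 (-0.87 to 0.33) and -0.25 (-0.94 to 0.45). Over the 30 genes the intervals reached from -1.37 to 1.40, so these libraries leave room for differences of that size in single genes.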

How the data were processed

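Per the labels, RNA of frozen back skin was extracted with Trizol and made into TruSeq libraries. Per the submitters' processing notes, the tools were HISAT2 2.0.5, featureCounts 1.5.0-p3 and also DESeq2 1.16.1. For the role of each tool, the build, the annotation and the use of strand, the sources used here say nothing. The authors deposited whole read counts per gene, unscaled, and FPKM; the deposited FPKM was checked to equal count per length over a divisor proportional to the DESeq2 size factor.

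Counts were filtered (filterByExpr), scaled with TMM and tested by quasi-likelihood in edgeR 4.0.16 under R 4.3.3, using 1 term for each group over 6 libraries and 3 residual degrees of freedom. Two-sided p-values were adjusted (Benjamini-Hochberg) over 16398 loci, and the threshold was 0.05. The SE comes from the F statistic. The fit was checked on simulated data. Loci without a gene name (1342) stayed in the library sizes and tests. Alternatives used DESeq2 1.42.0, limma 3.58.1, other scalings, filters and sample sets, and a replicate block.

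The members and the 7 pathway and 12 marker lists were chosen with earlier results of these data known. Named in full were members that passed with either drug and all sensing, transport, LXR and export members; of each pathway list up to 3 genes that passed with the smallest p in the mean of both drugs, or the 1 with the smallest p. Of each marker list the counts and summed CPM are given. Promoters to print were those of called synthesis genes with a TCACNCCAC match, then Insig1, Srebf2, Abca1 and Abcg1. No called synthesis gene had that match; the promoters of Hmgcs1 and Idi1 were added outside this rule, after the search. Listed genes without a row, 8 of them markers, were not analysed here. Of the genes this rule names, 1 is not reported here.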

Additional observations from a re-analysis of the deposited data

How the results depend on the processing

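Every call against untreated depended on having both untreated libraries. Leaving out each library in turn, the members higher ranged from 0 to 13 with gefitinib, 0 to 12 with afatinib and 0 to 14 for the mean of both, and those lower from 0 to 1, 0 to 1 and 0 to 2. Without gefitinib replicate 1 or 2, fewer members and fewer of all genes were higher for the mean of both. Without afatinib replicate 2, the same held with afatinib. Where leaving out a library leaves 1 in a group, that library is assumed to vary like the other groups. For afatinib, DESeq2 called 9 higher and 1 lower, limma-voom 0, the fit without a filter 9, and the fit of the 2 groups compared 0. Over all genes DESeq2 called 1494 higher and 498 lower with afatinib. Limma-voom called 32 of all genes higher, the fit without a filter 1632 and the fit of the 2 groups 44. For gefitinib the fit of the 2 groups compared called 14 higher, beside 3072 of all 15853 genes it tested. For the mean of both, DESeq2 called 14 and library size alone 16 higher, beside 2488 and 3126 of all genes. No fit of only the groups compared was possible for that mean, since it holds all 3. Library size alone left 0 members lower with gefitinib and for the mean of both, beside 191 and 225 of all genes. It moved the median log2 value of all genes from 0.04, 0.09 and 0.06 to 0.73, 0.71 and 0.72 (gefitinib, afatinib, mean of both); the synthesis median with gefitinib was then 1.84, which is 1.12 above all genes, and that of the other 11 genes 0.51, which is -0.22 against all genes. Afatinib against gefitinib gave 0 members under every alternative run.

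The replicate numbers of the labels name no shared animal or batch. Deviations of same-numbered libraries correlated at 0.04, 0.06 and -0.23 across genes. With the replicate block 9 members were higher and 0 lower with gefitinib, where Nr1h3 was lost at -1.14 (adjusted p = 0.052), and 3 higher with afatinib, where Hmgcs1 and Cyp51 were lost. Over all genes the block left 1602 higher and 696 lower with gefitinib and 337 higher with afatinib.

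Of 1230 values of single members under the alternatives, 993 kept sign and call, 62 gained a call, 104 lost one and 71 changed sign; none of the 71 passed before or after, none exceeded 0.66 in size, and among synthesis genes they concerned Pmvk, Ggps1 and Fdft1. With library size alone the log2 values, for gefitinib, afatinib and the mean of both, were 0.29, 0.02 and 0.15 for Fdft1, 0.2, 0.21 and 0.21 for Npc2, 0.49, 0.39 and 0.44 for Nr1h2, 0.36, 0.27 and 0.32 for Abca1, 0.51, 0.66 and 0.58 for Abcg1 and 0.22, 0.51 and 0.37 for Mylip, and 0.54 for Pmvk with afatinib. With DESeq2 size factors or the DESeq2 test, Scap and Insig1 were at -0.02 and -0.04 with afatinib, and Pmvk and Insig1 at -0.04 and -0.01 for the mean of both. In the fit of the 2 groups Scap and Insig1 were at -0.01 and -0.03 with afatinib. Pmvk was at 0.0 for the mean of both with limma-voom, and Abcg1 with afatinib at 0.01 with the CPM filter and 0.0 with no filter. The cause was not tested. Leaving out each library, values with gefitinib ran from -0.03 to 0.09 for Pmvk, -0.13 to 0.33 for Ggps1, -0.03 to 0.25 for Scap, -0.06 to 0.21 for Insig1 and -0.69 to 0.06 for Abcg1. With afatinib they ran from -0.32 to 0.18 for Pmvk, -0.07 to 0.19 for Scap, -0.23 to 0.21 for Insig1, -0.17 to 1.03 for Stard4, -0.6 to 0.7 for Npc1, -0.82 to 0.01 for Npc2, -0.35 to 0.22 for Abcg1 and -0.42 to 0.02 for Mylip. For the mean of both they ran from -0.14 to 0.08 for Pmvk, -0.03 to 0.29 for Ggps1, -0.04 to 0.22 for Scap, -0.11 to 0.2 for Insig1, -0.07 to 0.87 for Npc1 and -0.4 to 0.01 for Abcg1.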
